A study of Homo sapiens with 4 samples.

Results

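The genes that write, erase and read histone and DNA methylation marks were described in nascent RNA of HCT116 cells, a human colorectal carcinoma line. The members were chosen by gene symbol, as the families KMT, KDM, HDAC, SIRT, KAT, SETD, NSD, EZH, EHMT, PRMT, DNMT, TET and CBX with EED, SUZ12 and DOT1L, leaving out symbols that end as an antisense transcript, a pseudogene or a divergent transcript. This gave 97 members of 60656 gene IDs, of which 88 had enough reads to be tested, namely 45 of 47 writers, 35 of 41 erasers and 8 of 8 readers. TTchem-seq, in which RNA made during a short pulse of 4-thiouridine is fragmented chemically, purified and sequenced, gave 4 libraries, 2 labelled DKO and 2 labelled WT. DKO cells carry TOP2A fused to an auxin-inducible degron (mAID) and are TOP2B -/-, and were given 500 µM auxin for 8 h to remove TOP2A. The other libraries carry the label wildtype. The treatment protocol names an HCT116 TOP2A mAID line beside the DKO line and names auxin for the DKO cells only. All cells were treated with 2 µM palbociclib, a CDK4 and CDK6 inhibitor that holds cells in G1, for 28 h and with 1 mM 4-thiouridine for 30 min. Loss of the topoisomerases, exposure to auxin and differences between cell clones cannot be told apart in this design.

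Histone marks are set by writers, which transfer methyl or acetyl groups to lysine or arginine, removed by erasers (demethylases and deacetylases), and bound by readers such as the chromobox proteins. DNA methyltransferases place methyl groups on cytosine in CG dinucleotides, and TET dioxygenases oxidise them as the first step of removal. Polycomb complexes join both sides of this system, since PRC2 methylates lysine 27 of histone H3 and the Polycomb chromobox proteins of PRC1 bind that mark. In colorectal cancer cells, DNA methylation by DNMT1 and DNMT3B and Polycomb repression are both known to keep genes silent.

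Counted reads ranged from 51142867 to 53777749 per library. Replicates correlated at r = 0.9969 in DKO and 0.9966 in WT, and libraries of different groups at 0.9864 to 0.9872. Nothing in the labels says that replicates came from separate cultures, so p-values measure only the spread between these libraries, which may be technical. TOP2B stood at 147 and 150 CPM (a gene's count relative to all counted reads of its library, with TMM scaling) in DKO and at 140 and 143 CPM in WT, a log2 fold change of 0.07 (adjusted p = 0.223), so its RNA does not check the labels. TOP2A stood at 165 and 168 CPM in DKO and at 126 and 122 CPM in WT. The epithelial genes EPCAM, KRT8, KRT18 and CDH1 lay between 64.4 and 166 CPM in every library. Of these CDH1 (log2 fold change -0.37), KRT8 (-0.21) and KRT18 (-0.19) were called lower in DKO and EPCAM was not called (0.04). PTPRC and CD3E, which mark blood cells, had 0 to 4 reads and were not tested. PECAM1, an endothelial gene, had 15 to 18 reads and COL1A1, a gene of stromal cells, 158 to 192, and neither was called. KRT20 and VIL1, markers of differentiated intestinal cells, had 1 to 11 reads and CDX2, an intestinal transcription factor, 10.6 to 13 CPM.

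Most chromatin enzyme genes differed little between the groups, and none of the 88 members changed by as much as 1 on the log2 scale. The members that rose were led by 3 histone demethylases, KDM3A, KDM7A and KDM5B, and the class IIa deacetylase HDAC4. Those that fell included the DNA methyltransferases DNMT3A and DNMT3B, 3 sirtuins and the Polycomb readers CBX8 and CBX2. DNMT3B lies on chromosome 20, where 79.4% of tested genes fell. A gene was called when the quasi-likelihood test of edgeR, fitted on all 19103 tested genes, gave a Benjamini-Hochberg adjusted p under 0.05. The values are relative to the reads of each library, and fewer cells making an RNA and less RNA per cell cannot be told apart. By this rule 13 members rose and 22 fell in DKO, and 53 were not called.

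These shares were close to the background or below it. Members called in either direction made up 39.8%, beside 40.1% of all tested genes and 45.5% of the 13083 tested protein-coding genes. Members called higher were 14.8%, against 19.0% of all tested and 20.3% of protein-coding genes, and members called lower 25.0%, against 21.1% and 25.2%. The 2 DKO values and the 2 WT values of a gene did not overlap for 59 members (67.0%), beside 71.7% of tested protein-coding genes. The median log2 fold change, DKO over WT, was -0.03 over the members and -0.03 over protein-coding genes, and its median size without regard to sign was 0.11 for members and 0.17 for protein-coding genes. The largest fall was -0.63 and the largest rise 0.56. Of the 13083 tested protein-coding genes 493 passed 1 in size, so few such changes are due among 88 genes.

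**Figure D1:**
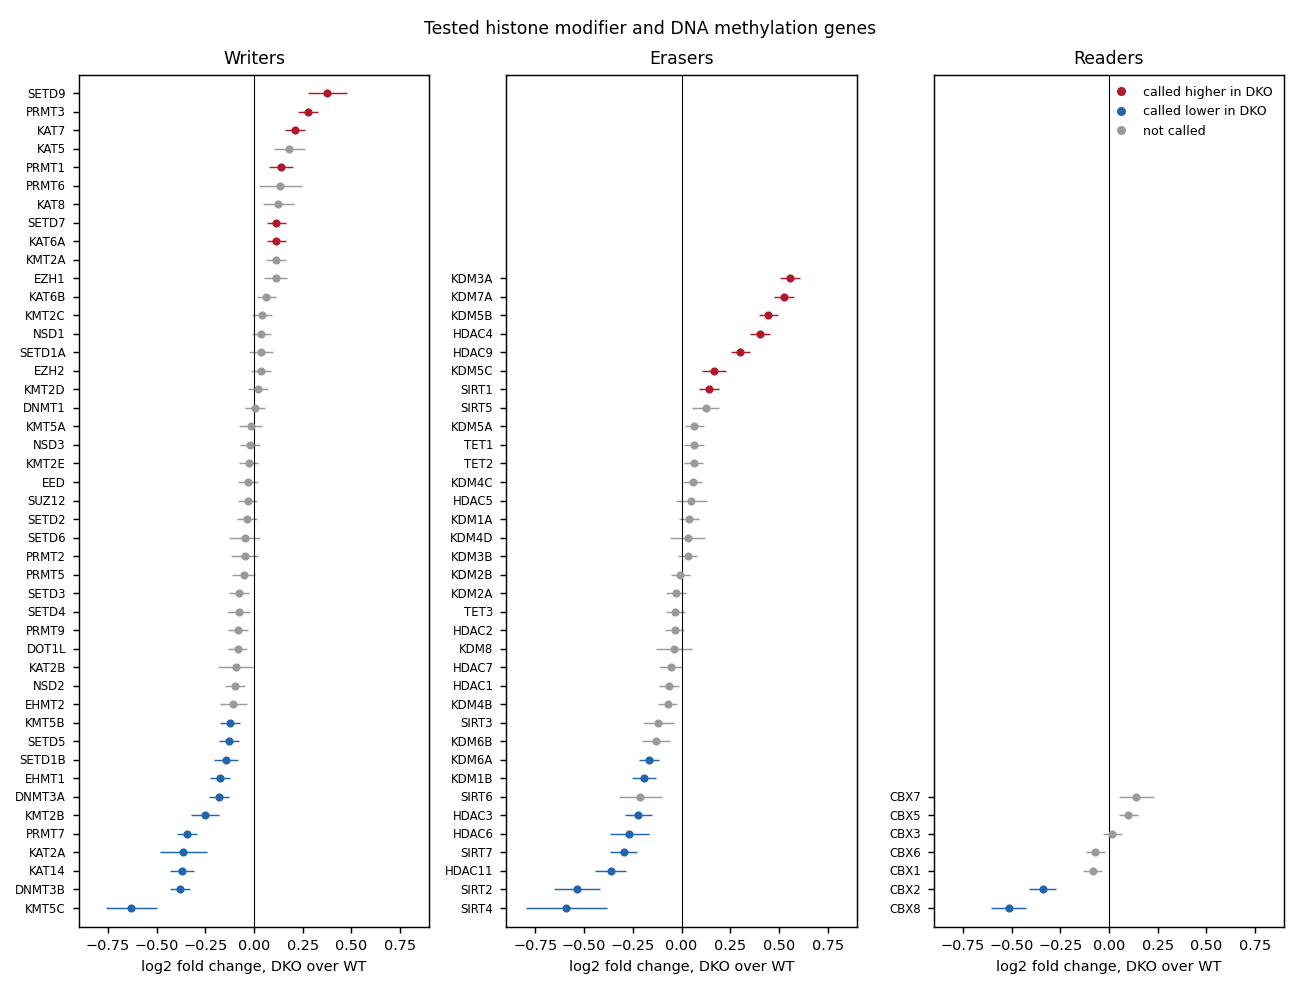
Log2 fold change, DKO over WT, of the 45 tested writers, 35 erasers and 7 of the 8 readers, 1 gene per row, with bars of 1 standard error from edgeR (n = 2 libraries per group). Red points were called higher in DKO, blue points lower and grey points were not called. Erasers hold the 3 largest rises, and no reader shown was called higher with TMM factors.

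Of the 45 tested writers 6 rose and 11 fell (13.3% and 24.4%), beside 20.3% and 25.2% of protein-coding genes. Among the erasers 7 genes rose and 8 (22.9%) fell, of 35 tested. The eraser shares were close to those of protein-coding genes in both directions, so the erasers as a class did not stand out. KDM3A, which removes methyl groups from lysine 9 of histone H3 and is known as a hypoxia-induced gene, had 115 and 126 CPM in DKO and 82.4 and 81.9 CPM in WT. Both DKO libraries lay above both WT libraries, and the log2 fold change was 0.56 ± 0.05 (SE, n = 2 each, adjusted p = 1.55e-22), or 1.47-fold. KDM7A, a demethylase of lysines 9 and 27 of histone H3, had 65.4 and 71.8 CPM in DKO and 46.5 and 48.8 CPM in WT, a log2 fold change of 0.53 ± 0.05 (adjusted p = 5.97e-18). The groups were again apart for this gene. KDM5B, which removes methyl groups from lysine 4 of histone H3, stood at 143 and 150 CPM in DKO and 107 and 108 CPM in WT, with a log2 fold change of 0.45 ± 0.05 (adjusted p = 2.04e-16).

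The promoters of these 3 demethylase genes are shown because the genes hold the 3 largest rises among the members. Each is 300 bases long, from 250 before to 50 after a gene start, and comes from RefSeq on GRCh38.p14, 5′ to 3′ on the gene's strand. The start that RefSeq gives for KDM3A lies inside the gene's full span rather than at its outer end. KDM3A is at chr2:86441121-86441420 on the plus strand, KDM7A at chr7:140176934-140177233 on the minus strand and KDM5B at chr1:202808372-202808671 on the minus strand. Capitals mark ACGTG or GCGTG, the core letters of hypoxia response elements, searched on both strands (a match on the opposite strand would read CACGT or CACGC).
KDM3A: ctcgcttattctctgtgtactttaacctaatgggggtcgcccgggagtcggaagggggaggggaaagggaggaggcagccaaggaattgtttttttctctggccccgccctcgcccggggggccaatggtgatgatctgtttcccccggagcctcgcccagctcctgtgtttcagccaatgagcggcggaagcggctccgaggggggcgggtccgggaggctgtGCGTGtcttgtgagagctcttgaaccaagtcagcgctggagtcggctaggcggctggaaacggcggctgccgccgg
KDM7A: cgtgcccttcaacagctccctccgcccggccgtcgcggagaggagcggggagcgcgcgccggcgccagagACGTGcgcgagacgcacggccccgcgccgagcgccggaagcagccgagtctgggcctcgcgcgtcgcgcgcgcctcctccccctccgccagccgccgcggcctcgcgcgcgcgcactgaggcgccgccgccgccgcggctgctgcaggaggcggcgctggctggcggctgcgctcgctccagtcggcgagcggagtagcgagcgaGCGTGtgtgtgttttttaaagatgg
KDM5B: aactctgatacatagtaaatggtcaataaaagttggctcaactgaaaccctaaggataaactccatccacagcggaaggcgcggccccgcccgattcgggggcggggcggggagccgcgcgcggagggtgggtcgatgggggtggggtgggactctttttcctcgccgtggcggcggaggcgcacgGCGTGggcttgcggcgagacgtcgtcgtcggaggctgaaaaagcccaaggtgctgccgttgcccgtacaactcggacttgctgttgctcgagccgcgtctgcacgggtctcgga

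All 3 windows hold GCGTG once, and the KDM7A window also holds ACGTG once. They differ in CG dinucleotides, with 23 in the KDM3A window, 56 in KDM7A and 34 in KDM5B, beside a median of 29.0 over the members, 26.0 over tested protein-coding genes and 14.0 over all 35116 promoters in the table. The KDM3A window thus lies below the median of protein-coding genes. A promoter was found for 78 of 88 tested members. GCGTG was in 7 of 12 promoters of members called higher (58.3%) in 11 of 17 of members called lower (64.7%) and in 31 of 49 of members not called (63.3%), beside 49.7% of tested protein-coding genes with a promoter and 36.5% of all promoters. ACGTG was in 4 of 12 promoters of members called higher (33.3%), 3 of 17 of members called lower (17.6%) and 17 of 49 of members not called (34.7%), beside 26.0% of tested protein-coding genes and 21.4% of all promoters. The letters CACGTG contain ACGTG on both strands. A match of letters is a description of the window and does not show that a factor binds there.

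Of the other lysine demethylases, KDM5C, the X-linked relative of KDM5B, had 34.6 and 36.2 CPM in DKO and 32.4 and 30.6 CPM in WT. It was called higher at a log2 fold change of 0.17 ± 0.06 (adjusted p = 0.0172), but not without DKO replicate 2 (adjusted p = 0.142), WT replicate 1 (0.113) or WT replicate 2 (0.245). KDM6A, an X-linked demethylase of lysine 27 of histone H3, had 284 and 322 CPM in DKO and 329 and 352 CPM in WT, a log2 fold change of -0.17 ± 0.05 (adjusted p = 0.0034). Its value rests on single libraries, at -0.08 without DKO replicate 1 (adjusted p = 0.265) and -0.26 without DKO replicate 2 (adjusted p = 8.63e-06), and the call was also lost without either WT replicate (adjusted p = 0.192 and 0.392). KDM1B, an H3 lysine 4 demethylase, also fell, by 0.19 on the log2 scale (adjusted p = 0.00701, and 0.122 without WT replicate 1 and 0.0842 without WT replicate 2), and is named here after its value was seen. KDM8, a JmjC protein assigned here to the group of H3 lysine 36 demethylases, had 9.45 and 8.68 CPM in DKO and 8.54 and 10.1 CPM in WT. The groups overlapped for this gene and it was not called (log2 fold change -0.04 ± 0.09, adjusted p = 0.774). The other 9 KDM genes without a call lay between -0.13 and 0.07.

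The histone deacetylases were called in both directions. Class IIa members bind MEF2 transcription factors and have weak catalytic activity of their own. Of these 4 genes 2 rose, beside 20.3% of protein-coding genes called higher. HDAC4 had 327 and 354 CPM in DKO and 259 and 256 CPM in WT, a log2 fold change of 0.40 ± 0.05 (adjusted p = 2.94e-13). HDAC9 had 68.9 and 79 CPM in DKO and 59.2 and 60.7 CPM in WT, and rose by a log2 fold change of 0.30 ± 0.05 (adjusted p = 1.65e-07). For both genes the DKO libraries lay above the WT libraries. The HDAC9 value was 0.20 without DKO replicate 2, and its call was lost without WT replicate 1 (adjusted p = 0.14) and WT replicate 2 (0.0823).

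Outside class IIa no deacetylase of the HDAC family was called higher. HDAC3, the catalytic subunit of the NCoR and SMRT corepressor complexes, had 23.2 and 23.2 CPM in DKO and 28.2 and 26 CPM in WT (log2 fold change -0.22 ± 0.07, adjusted p = 0.0034). HDAC11, the sole class IV deacetylase, had 12.4 and 12.4 CPM in DKO and 16.1 and 15.8 CPM in WT (log2 fold change -0.36 ± 0.08, adjusted p = 4.61e-05). Both were lower in every DKO library than in any WT library, and both calls were lost without WT replicate 1 (adjusted p = 0.162 for HDAC3 and 0.0585 for HDAC11). HDAC6, a mainly cytoplasmic deacetylase of tubulin named here after its value was seen, fell by 0.27 on the log2 scale (adjusted p = 0.0226) and lost its call with any of the 4 libraries left out (adjusted p = 0.0637 and 0.0812 without DKO replicates 1 and 2, and 0.158 and 0.102 without WT replicates 1 and 2). HDAC1 and HDAC2, the class I deacetylases of the SIN3 and NuRD complexes, were not called.

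The sirtuins, deacylases that consume NAD, had 1 rise and 3 falls among 7 genes (14.3% and 42.9%), beside 20.3% and 25.2% of protein-coding genes. The groups were apart for all 7, as they were for 71.7% of protein-coding genes. SIRT1, the main nuclear sirtuin, had 76.6 and 74.6 CPM in DKO and 67.3 and 69.9 CPM in WT (log2 fold change 0.14 ± 0.05, adjusted p = 0.0158). SIRT2, which deacetylates tubulin in the cytoplasm, had 3.25 and 3.49 CPM in DKO and 5.11 and 4.66 CPM in WT (-0.54 ± 0.12, adjusted p = 9.59e-05). SIRT7, a nucleolar sirtuin that deacetylates lysine 18 of histone H3, had 15.5 and 15.7 CPM in DKO and 20.1 and 18.1 CPM in WT (-0.30 ± 0.07, adjusted p = 0.000413). SIRT4 is mitochondrial, so its call does not bear on histones directly. It had the fewest reads of all called members, with 0.732 and 0.956 CPM in DKO and 1.21 and 1.33 CPM in WT (-0.59 ± 0.21, adjusted p = 0.0189). Without WT replicate 1 none of the 4 sirtuins was called (adjusted p = 0.0824 for SIRT2, 0.117 for SIRT7, 0.151 for SIRT4 and 0.234 for SIRT1). SIRT4 was also lost without DKO replicate 1 (0.219) and WT replicate 2 (0.197), and SIRT1 without DKO replicate 1 (0.0742) and WT replicate 2 (0.106).

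The 3 TET genes, the dioxygenases of methylated cytosine, were not called. TET1 had 55.5 and 63.5 CPM in DKO and 54.6 and 59.2 CPM in WT, with overlapping groups (log2 fold change 0.07 ± 0.05, adjusted p = 0.341), and was called higher without DKO replicate 1 (0.16, adjusted p = 0.0196). TET2 had 199 and 210 CPM in DKO and 194 and 197 CPM in WT (0.06 ± 0.05, adjusted p = 0.308). TET3 had 196 and 205 CPM in DKO and 204 and 206 CPM in WT (-0.03 ± 0.05, adjusted p = 0.632).

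Of the 3 tested genes whose enzymes place DNA methylation, DNMT3B and DNMT3A were called lower in DKO (66.7%). Of protein-coding genes 25.2% were called lower, and of chromosome 20 genes, which include DNMT3B, 79.4%. With so few genes, a difference between kinds of DNA methyltransferase was not tested. DNMT3B, a de novo methyltransferase, had 99.9 and 99.1 CPM in DKO and 129 and 129 CPM in WT, a log2 fold change of -0.38 ± 0.05 (adjusted p = 1.12e-12), or 23.1% lower. DNMT3A, its close relative, had 58.9 and 60.6 CPM in DKO and 67 and 68.3 CPM in WT (-0.18 ± 0.05, adjusted p = 0.00203), and lost its call without WT replicate 1 (adjusted p = 0.0952) or WT replicate 2 (0.103). DNMT1, which copies methylation onto new DNA strands, had 115 and 125 CPM in DKO and 123 and 116 CPM in WT. Its groups overlapped, and its log2 fold change was 0.01 ± 0.05 (adjusted p = 0.941).

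DNMT3B lies on chromosome 20, where 340 of 428 tested genes fell and 13 rose in DKO, with a median log2 fold change of -0.59. The same holds for KAT14, an acetyltransferase of the ATAC complex, which had 28.5 and 28.4 CPM in DKO and 35.8 and 37.6 CPM in WT (-0.37 ± 0.06, adjusted p = 5.28e-08). Relative to the chromosome's median both genes stood higher, DNMT3B by 0.22 and KAT14 by 0.23, and 328 and 330 of the 428 genes had a lower log2 fold change than they had. Whether the falls of DNMT3B and KAT14 differ from that of their chromosome was not tested. Without these 2 genes, 13 of 86 members rose (15.1%) and 20 fell (23.3%), beside 19.4% and 19.7% of the tested genes off chromosome 20.

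**Figure D2:**
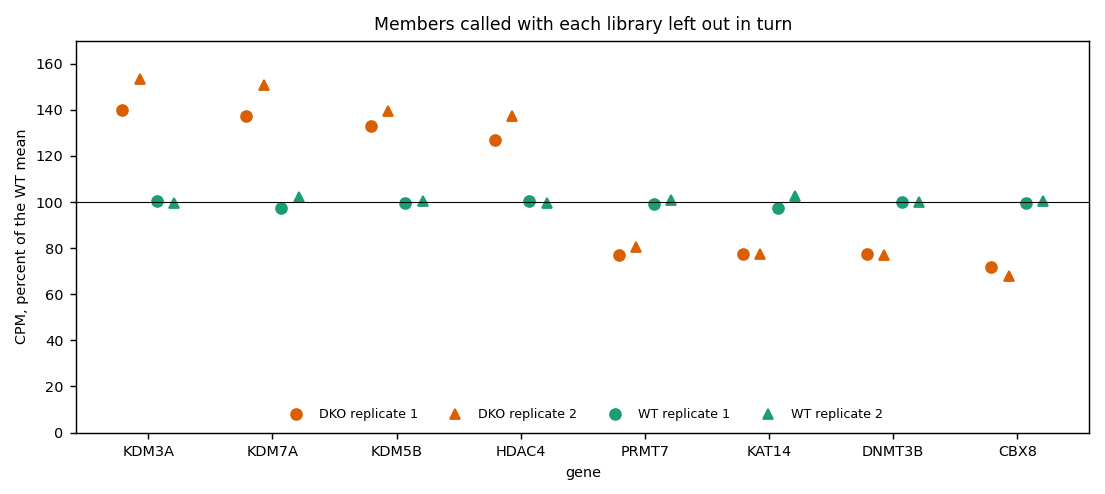
CPM in each library as a percent of the WT mean, for 8 of the 9 members that were called with each library left out in turn, DKO in orange and WT in green (circle, replicate 1, and triangle, replicate 2). The 2 DKO points lie above both WT points for KDM3A, KDM7A, KDM5B and HDAC4, and below them for PRMT7, KAT14, DNMT3B and CBX8.

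Histone methyltransferases were mostly not called, and those of lysine 27 and lysine 36 of histone H3 had no call at all. The 4 PRC2 core genes had adjusted p-values of 0.125 to 0.668. EZH2, the main catalytic subunit, had 161 and 177 CPM in DKO and 164 and 166 CPM in WT (log2 fold change 0.03 ± 0.05). EED, which binds the mark that PRC2 makes, had 75.5 and 76.7 CPM in DKO and 76.3 and 79.1 CPM in WT (-0.03 ± 0.05). SUZ12, the scaffold subunit, had 168 and 172 CPM in DKO and 167 and 181 CPM in WT (-0.03 ± 0.05). Reads of SUZ12 are uncertain because the pseudogene SUZ12P1 is nearly identical to part of it and was itself counted at 123 and 128 CPM in DKO and 151 and 158 CPM in WT. EZH1, the other catalytic subunit, had 35.1 and 35.4 CPM in DKO and 33.5 and 31.8 CPM in WT (0.11 ± 0.06), with its groups apart. For H3 lysine 36, NSD2 stood nearest to a call, with 155 and 159 CPM in DKO and 168 and 168 CPM in WT (-0.10 ± 0.05, adjusted p = 0.0832).

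Of all 25 tested KMT, SETD, NSD, EZH, DOT1L and EHMT genes, 6 fell and 2 rose (24.0% and 8.0%). These shares stand beside 25.2% and 20.3% of protein-coding genes. The 13 members grouped here as methyltransferases of H3 lysines 4, 9 and 79 and H4 lysine 20 hold 5 of these falls and none of the rises. The 2 rises, SETD9 and SETD7, were grouped as other SET domain proteins. Since SETD7 has histone substrates too, the absence of rises among the 13 depends on this grouping. KMT5C, which trimethylates lysine 20 of histone H4, had the largest fall of all members, with 2.65 and 2.74 CPM in DKO and 4.65 and 3.68 CPM in WT (log2 fold change -0.63 ± 0.13, adjusted p = 2.24e-05). The call was lost without WT replicate 1, the higher WT library (-0.45, adjusted p = 0.0938). KMT5B, which has the same substrate and is named after its value was seen, fell by 0.12 on the log2 scale (adjusted p = 0.0267, and 0.106 without DKO replicate 1, 0.203 without WT replicate 1 and 0.157 without WT replicate 2). KMT2B, which methylates lysine 4 of histone H3, had 18.5 and 20.7 CPM in DKO and 25 and 21.7 CPM in WT (-0.25 ± 0.07, adjusted p = 0.00161). Its value was -0.14 without WT replicate 1 (adjusted p = 0.347), and the call was also lost without DKO replicate 1 (0.0941) and WT replicate 2 (0.0574). SETD1B, the catalytic subunit of a COMPASS complex and likewise named after its value was seen, fell by 0.14 on the log2 scale (adjusted p = 0.0372). Without WT replicate 1 its value was -0.09 (adjusted p = 0.437), and the call was lost without DKO replicate 1 (0.282) and WT replicate 2 (0.108) too. EHMT1, which methylates lysine 9 of histone H3, had 122 and 129 CPM in DKO and 141 and 143 CPM in WT (-0.17 ± 0.05, adjusted p = 0.00118, and 0.119 without WT replicate 1 and 0.115 without WT replicate 2). DOT1L, the lysine 79 methyltransferase, was not called, with 73.3 and 76.2 CPM in DKO and 80.5 and 78.1 CPM in WT (-0.08 ± 0.05, adjusted p = 0.167).

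Of the other SET domain genes, SETD9 had 9.65 and 7.65 CPM in DKO and 6.56 and 6.77 CPM in WT (log2 fold change 0.38 ± 0.10, adjusted p = 0.00082). The DKO libraries differed more between themselves than the WT libraries did, and without DKO replicate 1 the value was 0.20 (adjusted p = 0.188). Its call was lost without WT replicate 1 (0.243) and WT replicate 2 (0.162) as well. SETD9 shares 47.3% of its span with MIER3, which averaged 58.1 CPM in DKO and 55.7 CPM in WT, and the strand setting of the counting is not given in the sources used here. SETD7, a lysine methyltransferase with histone and other substrates, had 124 and 122 CPM in DKO and 113 and 114 CPM in WT (0.11 ± 0.05, adjusted p = 0.039), and lost its call without DKO replicate 1 (adjusted p = 0.0929), WT replicate 1 (0.229) and WT replicate 2 (0.181). SETD5, named after its value was seen, fell by 0.13 on the log2 scale (adjusted p = 0.0251, and 0.19 without DKO replicate 1, 0.177 without WT replicate 1 and 0.289 without WT replicate 2).

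The arginine methyltransferases split, with 2 of 7 higher and 1 lower (28.6% and 14.3%), beside 20.3% and 25.2% of protein-coding genes. PRMT3, which methylates a protein of the small ribosomal subunit in the cytoplasm, had 366 and 367 CPM in DKO and 297 and 309 CPM in WT (log2 fold change 0.28 ± 0.05, adjusted p = 4.68e-07, and 0.0625 without WT replicate 1). PRMT1, which makes most asymmetric dimethylarginine in cells, had 40.5 and 39.2 CPM in DKO and 38.3 and 34.1 CPM in WT (0.14 ± 0.06, adjusted p = 0.0454). The PRMT1 call was lost with any library left out, and its value depended on which WT library stayed, at 0.22 without WT replicate 1 (adjusted p = 0.0891) and 0.06 without WT replicate 2 (0.558), beside adjusted p-values of 0.176 without DKO replicate 1 and 0.0522 without DKO replicate 2. PRMT7, which makes monomethylarginine, had 44.7 and 46.8 CPM in DKO and 57.6 and 58.4 CPM in WT (-0.34 ± 0.05, adjusted p = 9.27e-09). PRMT7 kept its call with each library left out.

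Among 8 acetyltransferase genes 2 rose and 2 fell (25.0% each), beside 20.3% and 25.2% of protein-coding genes. KAT7 (HBO1), which acetylates histones H3 and H4, had 130 and 127 CPM in DKO and 109 and 113 CPM in WT (log2 fold change 0.21 ± 0.05, adjusted p = 7.06e-05, and 0.0967 without WT replicate 1). KAT6A, a related acetyltransferase with the smallest called rise, is named after its value was seen, at 0.11 ± 0.05 (adjusted p = 0.045, and 0.165 without DKO replicate 2, 0.245 without WT replicate 1 and 0.224 without WT replicate 2). KAT2A (GCN5), the acetyltransferase of the SAGA complex, had 3.16 and 4.03 CPM in DKO and 5.05 and 4.19 CPM in WT (-0.36 ± 0.12, adjusted p = 0.0111). The 2 libraries of each group were far apart for this gene. Its value was -0.20 without DKO replicate 1 (adjusted p = 0.301), -0.55 without DKO replicate 2 (0.0013) and -0.22 without WT replicate 1 (0.457), and the call was lost without WT replicate 2 too (0.112).

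With TMM factors none of the 8 readers rose, beside 20.3% of protein-coding genes called higher. The class is small beside the 45 writers and 35 erasers tested. Lower calls were made for 3 of the 8 (37.5%), beside 25.2% of protein-coding genes. CBX8 and CBX2 are Polycomb chromobox genes, whose products bring PRC1 to trimethylated lysine 27 of histone H3. CBX8 had 9.73 and 9.23 CPM in DKO and 13.5 and 13.6 CPM in WT, a log2 fold change of -0.51 ± 0.09 (adjusted p = 8.24e-08), or 30.0% lower. CBX2 had 15.8 and 14 CPM in DKO and 18.6 and 19.3 CPM in WT (-0.34 ± 0.07, adjusted p = 5.28e-05), and lost its call without WT replicate 1 (adjusted p = 0.0875) or WT replicate 2 (0.0884). CBX8 and CBX2 were each lower in both DKO libraries than in either WT library. CBX6 and CBX7 on chromosome 22, which encode Polycomb proteins too, were not called, with log2 fold changes of -0.07 and 0.14. The 3 genes of the HP1 kind, which bind methylated lysine 9 of histone H3, were not called. Of these CBX5 was farthest from 0, with 73.3 and 74 CPM in DKO and 68.6 and 68.9 CPM in WT (0.10 ± 0.05, adjusted p = 0.102), and with upper quartile factors in place of TMM it was called higher at 0.13.

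CBX2 and CBX8 lie next to each other, at chr17:79777311-79787983 and chr17:79792132-79797077 (RefSeq, GRCh38.p14), and so are not independent positions in the genome. Over chromosome 17 as a whole, 251 of 877 tested genes fell and 111 rose, with a median log2 fold change of -0.07.

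Called members covered a wide range of lengths. The median genomic span was 63.2 kb for the 13 members called higher, 24.8 kb for the 22 called lower and 46.4 kb for the 53 not called. Across the 88 members, Spearman's rho between span and log2 fold change was 0.31, beside 0.25 across the 13083 tested protein-coding genes. These are descriptions across genes of the same 4 libraries, and genes are not independent replicates. Of 19 members under 20 kb, 7 fell and 2 rose (36.8% and 10.5%), beside 31.6% and 10.9% of protein-coding genes of that length. The short members that fell include CBX8, KMT5C, KAT2A and SIRT7, of 4.95 to 8.26 kb, while HDAC4 and HDAC9, which rose, span 353.48 and 915.59 kb. Of 16 members of 100 to 200 kb, 2 rose and 1 fell (12.5% and 6.25%), beside 32.7% and 18.3% of protein-coding genes of that length. Of 7 members over 200 kb, 2 rose and 2 fell (28.6% each), beside 37.4% and 16.2%. The CPM of a gene also went with its log2 fold change among members (rho 0.33), beside a rho of 0.07 among protein-coding genes. The part of length or read number in any single call was not tested.

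**Figure D3:**
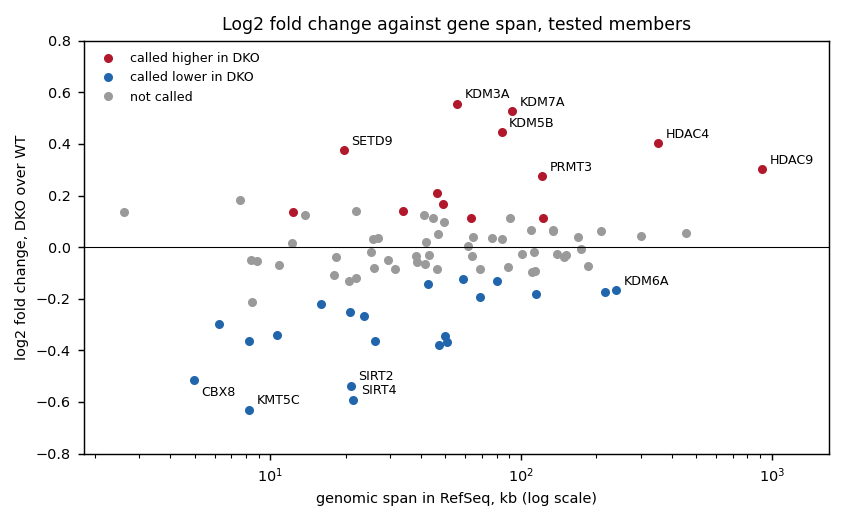
Log2 fold change, DKO over WT, against the genomic span in kb (log axis) of 87 of the 88 tested members, with genes called higher in DKO in red, lower in blue and not called in grey. By their medians the blue points lie at shorter spans than the red points, but their ranges overlap. KDM6A and EHMT1 are among the long genes called lower, and SETD9 and PRMT1 among the short ones called higher.

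The calls rest on few libraries. With each library left out in turn, 9 of the 35 called members were called every time, 4 higher (KDM3A, KDM7A, KDM5B and HDAC4) and 5 lower (among them PRMT7, KAT14, DNMT3B and CBX8). Without WT replicate 1, 26 of the 35 lost their call (adjusted p = 0.0585 to 0.457), and 9.88% of all tested genes were called in that run. Without WT replicate 2, 19 were lost, without DKO replicate 1 12 and without DKO replicate 2 4, at background shares of 15.8%, 33.3% and 31.9%. None of the 35 changed sign in these runs. TET1, KAT6B and KMT2A were called in addition without DKO replicate 1. The Wald test of DESeq2 called 26 of the 35, and edgeR without a filter on low counts called 14.

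**Figure D4:**
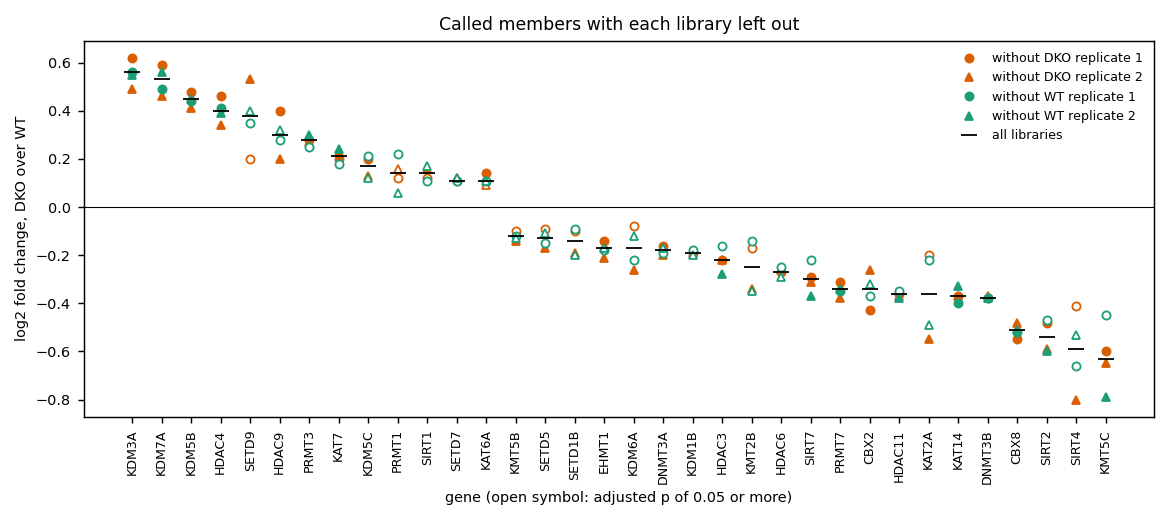
Log2 fold change, DKO over WT, of 34 of the 35 called members with all 4 libraries (black dash) and with each library left out, DKO replicates in orange and WT replicates in green, open where the adjusted p was 0.05 or more. All points stay on the side of 0 of their dash, and the points of SETD9, KAT2A, SIRT4 and KMT5C are spread the widest.

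Of the 9 members that were not tested, KDM4A, KDM4E, KDM4F and KDM5C-IT1, an intronic transcript, are listed at 0 in every library. HDAC8 had 4 reads in each library, HDAC10 5 and 4 in DKO and 5 and 11 in WT, DNMT3L 1 and 1 in DKO and 1 and 3 in WT, and PRMT8 10 and 10 in DKO and 8 and 9 in WT. The remaining member of the 9 is Y-linked and its level is not given. With so few reads no difference was detectable for these genes, and why KDM4A and HDAC8, which are widely expressed in human cells, are listed so low was not tested.

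The subunits that work with these enzymes were described from 90 partner genes, all of which were tested. Of these 20 rose and 17 fell, 41.1% in all, near the background. Among 8 subunits of the COMPASS complexes, which carry the H3 lysine 4 methyltransferases, 5 fell and none rose. Of all tested genes 21.1% were called lower and 19.0% higher, and of protein-coding genes 25.2% and 20.3%. Only NCOA6 of the 5 kept its call with each library left out. NCOA6 had 157 and 161 CPM in DKO and 256 and 268 CPM in WT (log2 fold change -0.73 ± 0.05, adjusted p = 2.33e-33). It lies on chromosome 20, where 79.4% of tested genes were called lower and the median log2 fold change was -0.59. MEN1 had 3.36 and 3.77 CPM in DKO and 5.65 and 4.74 CPM in WT (-0.54 ± 0.12, adjusted p = 5.91e-05, and 0.117 without WT replicate 1). WDR5 fell by 0.20 on the log2 scale (adjusted p = 0.000325, and 0.127 and 0.0861 without WT replicates 1 and 2).

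Polycomb partners were called in both directions. Of 13 further PRC1 subunits 4 rose and 1 fell (38.5% called), beside 40.1% of all tested and 45.5% of protein-coding genes called. The rises were led by PHC2 (log2 fold change 0.25), PCGF5 (0.22) and RNF2 (0.19), the catalytic ubiquitin ligase. These 3 calls were lost without WT replicate 1 (adjusted p = 0.096, 0.099 and 0.1) and WT replicate 2 (0.0863, 0.0599 and 0.0642). Of 8 accessory subunits of PRC2 2 rose and 1 fell (37.5% called). JARID2, which guides PRC2 to its targets, had 551 and 594 CPM in DKO and 417 and 428 CPM in WT (0.44 ± 0.05, adjusted p = 3.25e-14), with its groups apart. PHF19 had 14.9 and 15.4 CPM in DKO and 11.9 and 11.5 CPM in WT (0.37 ± 0.08, adjusted p = 4.28e-05, and 0.0519 without WT replicate 1), and RBBP4 fell by 0.13 on the log2 scale (adjusted p = 0.02, and 0.0675 without DKO replicate 1, 0.14 without WT replicate 1 and 0.198 without WT replicate 2). NCOA6 and JARID2 were the 2 partner genes called with each library left out.

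The other partner groups moved in both directions. Of 16 subunits of deacetylase corepressor complexes 4 rose and 3 fell (43.8% called). Of 16 acetyltransferase subunits and bromodomain readers 3 rose and 2 fell (31.2%). These shares stand beside 40.1% of all tested and 45.5% of protein-coding genes called. EPC2 and EPC1, scaffold subunits of acetyltransferase complexes, rose by log2 fold changes of 0.32 (adjusted p = 3.55e-09, and 0.0617 without WT replicate 1) and 0.29 (adjusted p = 6.22e-08, and 0.0741 without WT replicate 1). Among 9 readers of methylated DNA 2 rose and 3 fell, MBD1 by 0.35 on the log2 scale, with 24.4 and 24.6 CPM in DKO and 32.6 and 30.2 CPM in WT (adjusted p = 6.86e-07, and 0.0536 without WT replicate 1). The share called among these 9 readers was 55.6%. Of 13 further writers 4 rose and 1 fell (38.5% called). Of 7 further erasers and repair enzymes of DNA demethylation 1 rose and 1 fell (28.6%). SETDB2, an H3 lysine 9 methyltransferase, rose by a log2 fold change of 0.26 (adjusted p = 0.000913, and 0.11 and 0.0871 without WT replicates 1 and 2). JMJD6, a JmjC hydroxylase, fell by 0.26 on the log2 scale (adjusted p = 0.000121), at -0.38 without DKO replicate 1 and -0.15 without DKO replicate 2 (adjusted p = 0.0747), and lost its call without WT replicate 1 (0.24) and WT replicate 2 (0.115).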

How the data were processed

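TTchem-seq libraries of HCT116 cells, 2 DKO and 2 WT by their titles, were analysed. Per the labels' protocols, 66 ng of labelled RNA entered a stranded kit (KAPA RNA HyperPrep) and single reads of 75 bp were sequenced. The authors deposited raw read counts per Ensembl gene, and per the submitters' processing notes STAR 2.7.3a, featureCounts 1.6 and hg38 were used. Not given in the sources used here are the strand setting, the version of the gene set and whether introns were counted. Overlapping and near-identical genes are therefore uncertain, and 21 tested members overlap another protein-coding gene. No spike-in was used here, so an overall change of transcription cannot be seen.

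Symbols came from a gene name table (42020 of 60656 IDs matched). Positions and spans were matched to RefSeq on GRCh38.p14 by Ensembl ID, and by symbol where no ID matched. Promoters were matched by symbol to RefSeq on the same build. The members, their classes and the 90 partner genes were chosen with earlier results of these data known. Y-linked members are not described. For 1 other member the values are not reported here, though it is in the counts.

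The test was edgeR's quasi-likelihood F-test (version 4.0.16, R 4.3.3) on all genes that passed filterByExpr (10 reads as minimum count and 15 as minimum total). It used TMM factors and a model of group alone. Adjusted p-values are Benjamini-Hochberg values over 19103 genes. Standard errors are the absolute log2 fold change over the square root of F, with n = 2 libraries a group, and CPM values are TMM-scaled. Replicates differed by more than sampling noise (chi-square per degree of freedom 4.568 in DKO and 3.98 in WT) and were kept apart. The script was tested on simulated data. Values in every library are given for each DNMT, TET and PRC2 core member, the 12 largest called rises and falls, members on chromosome 20 and at least 1 member per group of enzymes. Partner genes are named by up to 3 called genes of the largest change per group. Alternatives were DESeq2 size factors, upper quartile factors, no filter, a minimum of 50 reads in 2 libraries, DESeq2 1.42.0 with its Wald test, limma 3.58.1 with voom, the replicate number as a block, each library left out and chromosome 20 left out. Where 1 library of a group is left, its spread is taken from the other group.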

Additional observations from a re-analysis of the deposited data

How the results depend on the processing

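None of the 35 called members changed sign under any alternative. DESeq2 size factors, at least 50 reads in 2 libraries and limma voom kept all 35 calls, and the size factors and that minimum added KAT5 and KMT2A. Without a filter on low counts 33584 genes were tested, and 6 members were called higher and 8 lower (writers 2 and 4, erasers 4 and 2, partner genes 9 and 3). The Wald test of DESeq2 called 5 erasers and 9 partner genes lower, and KDM5C, PRMT1, SETD7, SIRT4, KAT2A and KDM6A were among the named members that lost their call. With upper quartile factors, which moved the median of all genes to 0.028, 1 reader was called higher and 10 partner genes lower, 32 of the 35 calls remained, and CBX5, EZH1, KAT5 and KMT2A were added. Without chromosome 20 genes 3 writers were called higher. The cause of these shifts was not tested.

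With a library left out, members called higher ranged from 4 to 12 and lower from 5 to 21, writers from 0 to 5 and from 3 to 11, erasers from 4 to 7 and from 0 to 7, partner genes from 1 to 17 and from 1 to 14, and readers called lower from 2 to 3. No count was lower in another run than without WT replicate 1. Signs turned only for uncalled members near 0. With upper quartile factors TET3 stood at 0.0033, EED at 0.005 and SUZ12 at 0.0023, and DNMT1 stood at -0.0015 without a filter and -0.00032 without chromosome 20. Over the libraries left out TET3 ranged from -0.0668 to 0.0038, EZH2 from -0.0352 to 0.1026, TET1 from -0.0369 to 0.1618, SUZ12 from -0.0927 to 0.0275, DNMT1 from -0.061 to 0.0703 and KDM8 from -0.1543 to 0.0835.

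Replicate numbers did not pair the libraries, since deviations of same-numbered libraries correlated at 0.01135. With a replicate block 13 members were called higher and 23 lower, NSD2 being the added call (-0.0983, adjusted p = 0.0414).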

Other observations

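Symbols of the same families that were left out as antisense transcripts, divergent transcripts or pseudogenes numbered 51, of which 11 were tested and 4 were called. The pseudogene SUZ12P1 fell by 0.30 on the log2 scale (SE 0.05, n = 2 each, adjusted p = 1.43e-08 by edgeR), with 123 and 128 CPM in DKO and 151 and 158 CPM in WT, while SUZ12 itself stood at -0.03. CBX3P2, a pseudogene of the HP1 gene CBX3, rose by a log2 fold change of 0.51 (SE 0.15, adjusted p = 0.00338), with 2.76 and 2.7 CPM in DKO and 1.89 and 1.94 CPM in WT. PRMT5-DT, which starts beside PRMT5, fell by 0.41 on the log2 scale (adjusted p = 0.00623), with 3.42 and 2.66 CPM in DKO and 3.68 and 4.4 CPM in WT, and HDAC2-AS2 fell by 0.25 (adjusted p = 0.0157), with 9.07 and 8.63 CPM in DKO and 9.99 and 11.1 CPM in WT. PRMT5 and HDAC2 themselves were not called. The antisense KDM4A-AS1 had 4.62 and 4.59 CPM in DKO and 5.88 and 5.01 CPM in WT and was not called (adjusted p = 0.0748), while KDM4A is listed at 0 in all 4 libraries. Reads of these transcripts and of the genes they overlap or resemble cannot be told apart without the strand setting and the treatment of multiply mapped reads. SMPD3, which shares 5.1% of the span of PRMT7, averaged 0.45 CPM in DKO and 0.204 CPM in WT and was called higher (log2 fold change 1.13, adjusted p = 0.00948), opposite to PRMT7.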
